A study of Mus musculus with 9 samples.

Results

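Integrins and cadherins were followed across 3 populations of mouse skeletal muscle myoblasts, the proliferating precursors of muscle fibres, of the inbred strain FVB/N. The genes were every row of the deposited count files whose symbol is Itga followed by a number or letters, Itgb followed by a number from 1 to 8, or Cdh followed by a number. This gave 50 of 47729 rows, comprising 19 integrin alpha rows, 8 integrin beta rows and 23 cadherin rows, and 49 distinct symbols because 2 gene identifiers carry the symbol Itgam. The populations were SRCs at cycle 3 (SRC3) and FRCs at cycle 1 (FRC1), which the labels describe as reserve cells passaged in proliferation conditions after their isolation, and the parental population (PAR), with 3 libraries in each. Reserve cells are mononucleated cells that stay undifferentiated when a myoblast culture forms myotubes. Stranded polyadenylated-RNA libraries were sequenced as 50-base single reads, and the RNA of every sample had a RIN of 10. No allele, transgene or drug treatment is named for any group. The labels do not say whether the 3 libraries of a group came from separate cultures or mice, so the p-values measure the spread between these libraries, which may be technical.

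Integrins are heterodimers of an alpha and a beta chain that bind extracellular matrix or counter-receptors outside the cell and, through talin and kindlin, the actin cytoskeleton inside it. The alpha chain largely sets the ligand: laminins, collagens, or proteins with an RGD motif such as fibronectin and vitronectin. In muscle, the laminin receptor of alpha7 and beta1 chains anchors fibres to their basement membrane. Classical cadherins join like cells through calcium-dependent extracellular repeats and bind catenins inside the cell; M-cadherin (Cdh15) and N-cadherin (Cdh2) are the classical cadherins best known from myoblasts.

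The libraries held 13012996 to 14336279 gene counts, and at these depths 3 counts correspond to 0.209 to 0.231 CPM, that is, counts scaled to the library total. Levels below are CPM scaled by TMM factors, which lay between 0.994 and 1.01. Tests are two-sided quasi-likelihood tests of edgeR on all 9 libraries and 12540 tested genes, with Benjamini-Hochberg adjustment over all of them and a threshold of 0.05. Markers of myoblasts were abundant in every library, with a summed level of 2204 to 2416 CPM in SRC3, 3039 to 3109 CPM in FRC1 and 3196 to 3276 CPM in PAR. Muscle differentiation markers (9 genes, among them Myog, Myh3 and Acta1) summed to 8.20 to 23.3 CPM in SRC3, 84.6 to 97.3 CPM in FRC1 and 9.03 to 11.3 CPM in PAR. Of these genes, Tmem8c, the highest in PAR, averaged 3.56 CPM in FRC1 and 5.00 CPM in PAR. Gm7325 was likewise lower in FRC1, with 0.772 CPM against 1.25 CPM in PAR. Pericyte and smooth muscle markers (8 genes) summed to 58.8 to 72.1 CPM in SRC3, mostly Cspg4, and to 192 to 248 CPM in FRC1 and 74.9 to 84.7 CPM in PAR, mostly Acta2. Fibroblast markers (8 genes, nearly all Col3a1, with Lum at 0 in all libraries) summed to 279 to 307 CPM in SRC3, 287 to 401 CPM in FRC1 and 558 to 588 CPM in PAR. Schwann and glial markers (7 genes, with Sox10 and S100b at 0) summed to 14.95 to 31.2 CPM in SRC3, mostly Ngfr, 2.04 to 2.49 CPM in FRC1 and 1.68 to 2.48 CPM in PAR. Their part in the differences below was not tested, and in such bulk samples fewer cells of a type and less RNA per cell cannot be told apart.

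Of the 50 rows, 23 had enough counts to be tested: 9 of 19 integrin alpha rows, 6 of 8 integrin beta rows and 8 of 23 cadherin rows. Of these, 20 exceeded the count filter, about 0.734 CPM, in all libraries of every group; the exceptions were Itga2b, Itga4 and Itga10. The other 27 rows were near or below detection. No read was found in any library for 10 of them, which allows at most 0.231 CPM: Cdh1 (E-cadherin of epithelia), Cdh4, Cdh7, Cdh8, Cdh16, Cdh20, Cdh26, Itgad, Itgax and 1 of the 2 Itgam identifiers. This limit may not hold for Itgad and that Itgam identifier. Their exons overlap those of other rows or genes on the same strand, and shared reads may not have been counted. Another 11 had at most 4 reads in every library, including Cdh5 (VE-cadherin of endothelium), Itgal, Itgae and the leukocyte beta chain Itgb2. The remaining 6 had at least 5 reads in a library, namely Cdh3, Cdh11, Cdh18, Itga1, Itga9 and Itgb3, with no more than 11 reads and a group mean of at most 0.53 CPM.

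None of the 6 rows of leukocyte alpha chains could be tested. Leukocyte markers were likewise low (7 genes summing to 3.34 to 4.76 CPM in SRC3, 2.80 to 3.92 CPM in FRC1 and 3.44 to 3.99 CPM in PAR, mostly Cd68, with Cd52 and Adgre1 at 0 in all libraries). Endothelial markers were also low (7 genes summing to 2.35 to 2.86 CPM in SRC3, 1.40 to 2.12 CPM in FRC1 and 1.92 to 2.98 CPM in PAR, with Cldn5, Emcn and Kdr at 0). Epithelial markers (7 genes) summed to 24.3 to 39.2 CPM in SRC3, 30.3 to 38.5 CPM in FRC1 and 49.0 to 52.2 CPM in PAR, mostly Krt19, with Cldn7 at 0. The symbol rule also takes in 5 cadherins that are not classical, Cdh13, Cdh16, Cdh17, Cdh23 and Cdh26, of which Cdh13, Cdh17 and Cdh23 were tested. They are given apart from the classical type I and type II cadherins.

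**Figure D1:**
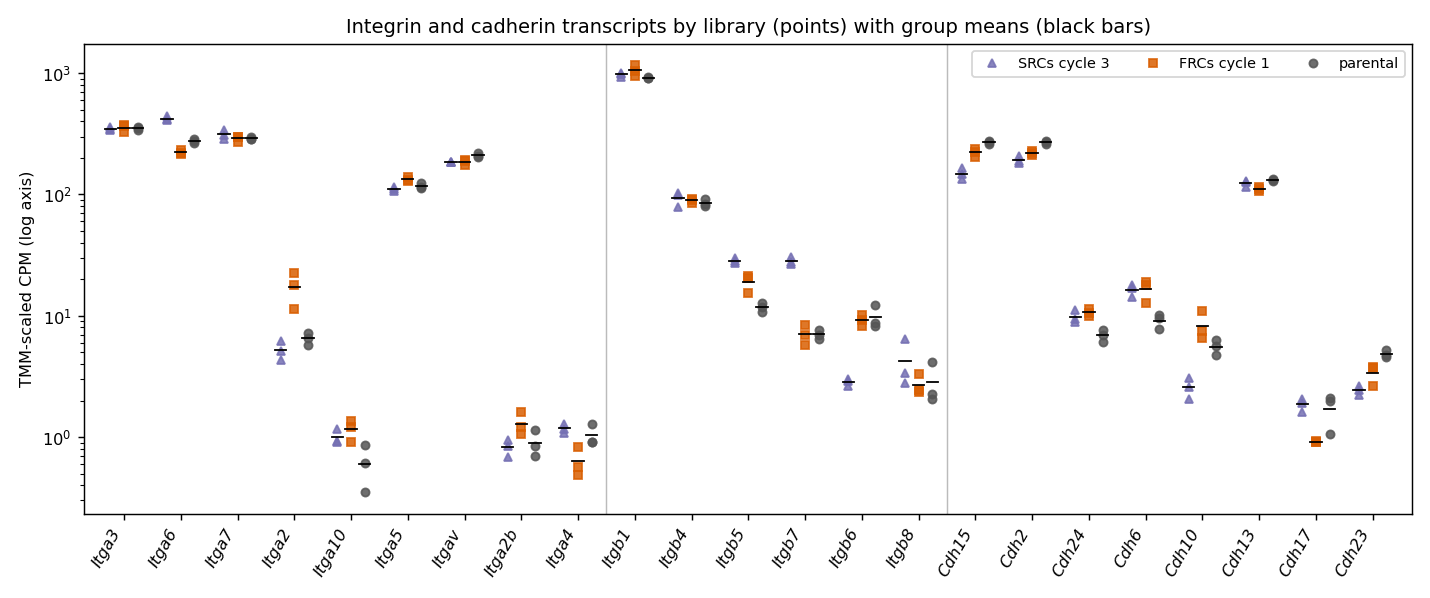
Level of the 23 tested integrin and cadherin genes in each library (TMM-scaled CPM, log axis; symbols are libraries, black bars group means of 3). Itgb1 is the highest of them, and Itga10, Itga2b and Itga4 lie near 1 CPM. The SRC3 points of Itga6 and Itgb7 lie above, and those of Itgb6 and Cdh10 below, all points of both other groups.

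Every comparison held changes in both directions. In SRC3 against PAR, 11 of the 23 tested genes passed, 5 higher and 6 lower, against 37.9% of all tested genes (17.8% higher, 20.2% lower). In FRC1 against PAR, 14 passed, 7 higher and 7 lower, against 28.3% of all tested genes (13.6% higher, 14.7% lower). In SRC3 against FRC1, 12 passed, 6 higher and 6 lower, against 33.5% (15.5% higher, 18% lower). Without PAR replicate 2 or without FRC1 replicate 2, 9 of the 23 passed in FRC1 against PAR, and without FRC1 replicate 3 the lower ones numbered 4. All genes called numbered 2768, 2645 and 2327 in these fits in turn, beside 3550 with all libraries. Without SRC3 replicate 1, 8 of the 23 passed in SRC3 against FRC1, 3 of them higher. All genes called then numbered 3424, beside 4199 with all libraries.

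Changes of at least 2-fold passed for 4 genes in SRC3 against PAR (Itgb7, Itgb5, Itgb6 and Cdh10; 6.71% of all tested genes), for 1 gene in FRC1 against PAR (Itga2; 2.63%) and for 5 genes in SRC3 against FRC1 (Itgb7, Cdh17, Itga2, Cdh10 and Itgb6; 6.53%). The median absolute log2 fold change of the 23 genes was 0.48 in SRC3 against PAR, 0.30 in FRC1 against PAR and 0.47 in SRC3 against FRC1, beside 0.18, 0.16 and 0.16 over all tested genes. Of the 23 genes, 17 averaged at least 5 CPM, and of these 10 passed in SRC3 against PAR (40.1% of all such genes), 12 in FRC1 against PAR (31.6%) and 10 in SRC3 against FRC1 (35.1%). The libraries of the groups did not overlap for 14, 16 and 13 of the 23 genes in the same order, beside 49.2%, 44.2% and 42.8% of all tested genes. The 3 comparisons share libraries, so they are not independent of each other.

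**Figure D2:**
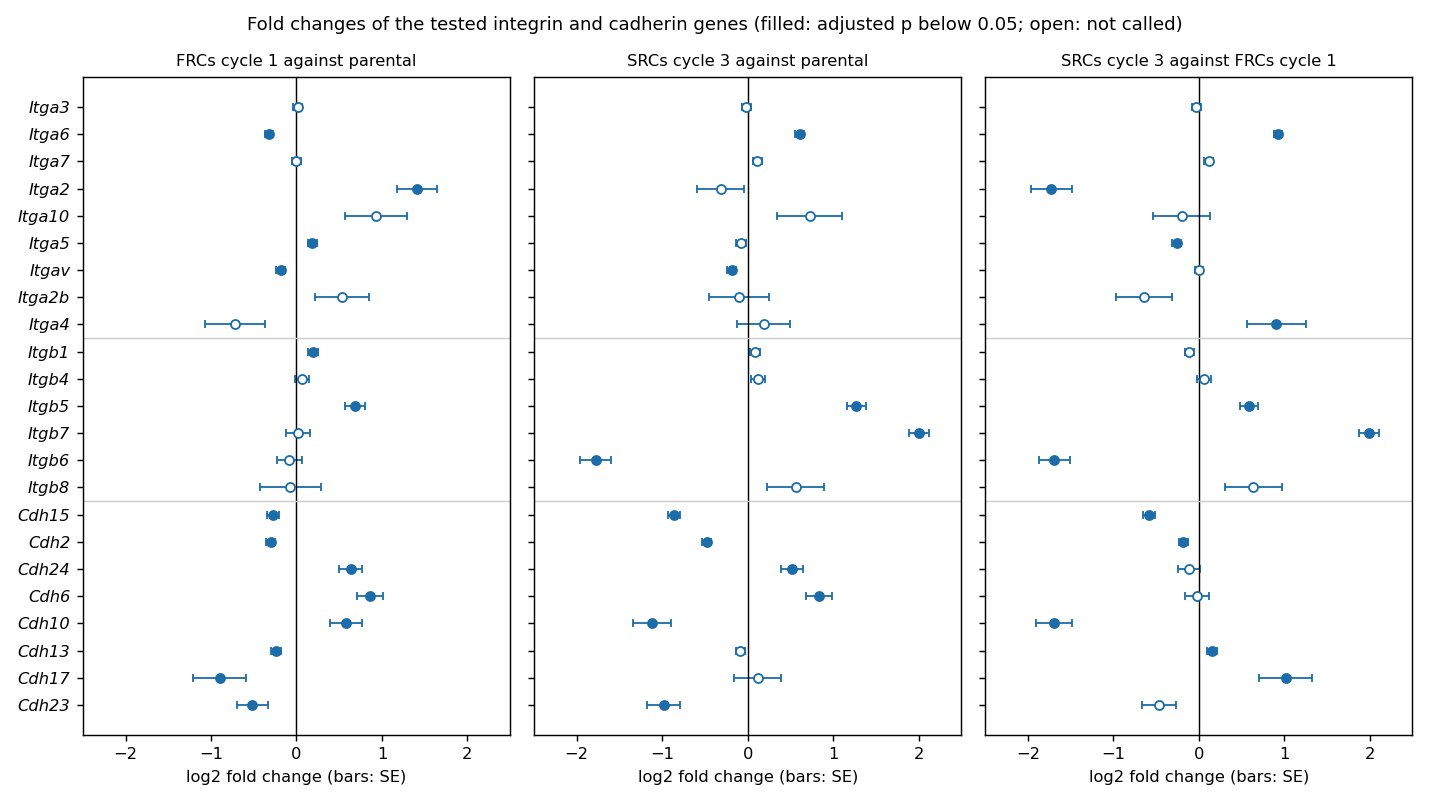
Log2 fold change (x axis, bars: SE) of the 23 tested genes in FRC1 against PAR, SRC3 against PAR and SRC3 against FRC1, filled where the adjusted p of edgeR's test was below 0.05. Itga6 and Cdh10 have filled points on opposite sides of 0 in the FRC1 and SRC3 panels, while Itgb7 and Itgb6 have filled points in the SRC3 panels only.

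Promoter sequences are shown for the genes with a called change of at least 2-fold that had an entry in the RefSeq promoter table. That of Cdh15, the cadherin with the highest mean level per kilobase of exon, is shown too. Each window spans 250 bases before to 50 bases after a RefSeq transcript start in GRCm38.p6, 5′ to 3′ on the gene's strand. Capitals mark every E-box, the letters CANNTG read on both strands, which is the general motif of basic helix-loop-helix factors such as MyoD. Of 32851 promoter windows of the same length, 72.3% hold CANNTG.
Itgb7 (chr15:102231886-102232185, minus strand): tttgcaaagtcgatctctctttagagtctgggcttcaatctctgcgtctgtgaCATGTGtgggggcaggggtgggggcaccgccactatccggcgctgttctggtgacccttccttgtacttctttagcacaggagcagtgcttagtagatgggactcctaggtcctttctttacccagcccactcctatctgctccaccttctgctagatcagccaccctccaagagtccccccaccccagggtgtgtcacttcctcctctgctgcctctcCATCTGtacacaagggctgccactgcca
Itgb5 (chr16:33829415-33829714, plus strand): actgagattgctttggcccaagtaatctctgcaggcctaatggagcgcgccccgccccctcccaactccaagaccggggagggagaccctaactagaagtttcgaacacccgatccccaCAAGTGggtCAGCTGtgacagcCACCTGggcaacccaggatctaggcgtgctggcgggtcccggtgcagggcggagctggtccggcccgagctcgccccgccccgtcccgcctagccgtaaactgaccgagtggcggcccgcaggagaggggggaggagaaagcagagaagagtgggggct
Itgb6, upstream start (chr2:60722554-60722853, minus strand): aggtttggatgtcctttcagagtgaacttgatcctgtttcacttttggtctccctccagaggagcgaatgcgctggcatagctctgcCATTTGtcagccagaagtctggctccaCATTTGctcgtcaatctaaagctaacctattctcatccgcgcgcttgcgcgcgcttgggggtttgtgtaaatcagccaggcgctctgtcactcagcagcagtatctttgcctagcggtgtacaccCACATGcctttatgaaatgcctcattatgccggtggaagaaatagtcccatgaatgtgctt
Itgb6, downstream start (chr2:60673644-60673943, minus strand): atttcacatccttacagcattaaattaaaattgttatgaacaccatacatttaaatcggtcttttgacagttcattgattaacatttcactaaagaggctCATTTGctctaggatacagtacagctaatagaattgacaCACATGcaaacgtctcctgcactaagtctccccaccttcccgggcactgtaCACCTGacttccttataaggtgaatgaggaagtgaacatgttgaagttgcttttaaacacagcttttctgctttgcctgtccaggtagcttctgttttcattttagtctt
Itga2 (chr13:114932051-114932350, minus strand): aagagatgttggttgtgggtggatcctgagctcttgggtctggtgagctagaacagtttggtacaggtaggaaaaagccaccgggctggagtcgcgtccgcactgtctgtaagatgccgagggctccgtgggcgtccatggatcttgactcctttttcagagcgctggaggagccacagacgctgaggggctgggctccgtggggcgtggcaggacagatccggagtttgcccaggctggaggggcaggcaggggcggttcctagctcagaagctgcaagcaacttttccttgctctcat
Cdh10 (chr15:18820079-18820378, plus strand): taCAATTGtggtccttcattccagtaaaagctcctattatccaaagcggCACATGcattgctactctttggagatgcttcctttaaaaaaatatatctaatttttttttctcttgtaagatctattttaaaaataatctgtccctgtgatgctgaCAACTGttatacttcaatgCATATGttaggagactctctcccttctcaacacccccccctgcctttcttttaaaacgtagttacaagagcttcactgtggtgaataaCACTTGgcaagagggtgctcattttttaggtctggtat
Cdh15 (chr8:122848124-122848423, plus strand): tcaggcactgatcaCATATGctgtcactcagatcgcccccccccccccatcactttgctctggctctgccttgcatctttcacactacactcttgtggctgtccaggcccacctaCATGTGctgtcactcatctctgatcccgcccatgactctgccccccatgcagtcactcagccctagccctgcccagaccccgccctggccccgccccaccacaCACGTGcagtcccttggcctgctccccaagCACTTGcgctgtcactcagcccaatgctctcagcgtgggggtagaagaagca
The windows differ in base composition. The Itgb5 window holds 20 CpG at 65.7% GC, whereas the Cdh10 window holds 2 CpG at 37.7% GC, beside medians of 7 CpG and 52.7% GC over all windows. E-boxes numbered 5 in the Cdh10 window, 4 in that of Cdh15, 3 each in those of Itgb5 and of both Itgb6 starts, 2 in that of Itgb7 and 0 in that of Itga2. The form CAGCTG, a special case of CANNTG, was present among these only in the Itgb5 window, once, and in 16.3% of all windows. The AP-1 motif TGANTCA was in none of the windows shown and in 7.81% of all windows, and the GC box GGGCGG was in those of Itgb5, Cdh15 and Itga2 and in 35.7% of all windows. Over the 17 tested members with an entry, 15 of 19 windows held CANNTG, 4 held CAGCTG, 1 held TGANTCA and 11 held GGGCGG, counts that overlap. The starts shown for Cdh10 and Cdh15 lie 1382 and 408 bases inside the GENCODE M21 gene, and the downstream Itgb6 start 48950 bases.

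Of the 3 laminin-binding alpha chains, Itga3, Itga6 and Itga7, only Itga6 passed a test. Itga6 (ENSMUSG00000027111, plus strand of chromosome 2, 71745616 to 71858416, GRCm38) pairs with the beta1 or beta4 chain. Its levels were 409, 415 and 441 CPM in SRC3, 232, 214 and 220.5 in FRC1 and 268, 287 and 276 in PAR. All SRC3 libraries lay above, and all FRC1 libraries below, those of PAR. Itga6 rose 1.52-fold in SRC3 against PAR (log2 fold change 0.61, SE 0.048, adjusted p = 4.1e-09) and fell in FRC1 against PAR (log2 fold change -0.32, SE 0.049, adjusted p = 7.3e-05). Between the reserve populations it was 1.90-fold higher in SRC3 (log2 fold change 0.93, SE 0.049, adjusted p = 8e-12).

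Itga3, the other widely used laminin receptor chain, had 348, 359.5 and 337 CPM in SRC3, 370.2, 329 and 367 in FRC1 and 342, 356 and 358 in PAR. Its groups overlapped in every comparison (log2 fold changes -0.02, 0.01 and -0.03 in SRC3 against PAR, FRC1 against PAR and SRC3 against FRC1). Itga7, the laminin receptor chain typical of skeletal muscle, had 312, 341 and 288 CPM in SRC3, 297, 272 and 299 in FRC1 and 286, 286 and 297 in PAR. Its groups overlapped too, and no comparison passed (log2 fold change 0.11, adjusted p = 0.12 in SRC3 against PAR, and log2 fold change 0.00 in FRC1 against PAR). Without SRC3 replicate 3, the lowest SRC3 library, Itga7 passed in SRC3 with adjusted p = 0.012 against PAR and 0.015 against FRC1. Exons of Itga7 overlap those of Mettl7b on the other strand, as do those of Itgb4, Itgav and Itga4 with other genes. No source used here gives the strand setting of the counting, so reads of such pairs cannot be told apart.

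Collagen-binding alpha chains were scarce except Itga2 in FRC1. Itga2 (ENSMUSG00000015533, minus strand of chromosome 13, 114833081 to 114932100, GRCm38) with beta1 forms a receptor for collagens. Its levels were 4.32, 5.16 and 6.23 CPM in SRC3, 11.4, 22.4 and 18.1 in FRC1 and 6.57, 7.27 and 5.75 in PAR. Every FRC1 library exceeded every other library, and replicate 1 was the lowest of the 3. It rose 2.66-fold in FRC1 against PAR (log2 fold change 1.41, SE 0.23, adjusted p = 0.001) and was 3.32-fold lower in SRC3 than in FRC1 (log2 fold change -1.73, SE 0.24, adjusted p = 0.00021). In SRC3 against PAR it did not pass (log2 fold change -0.32, SE 0.28, adjusted p = 0.4). Itga10, another collagen receptor chain, had 1.17, 0.925 and 0.911 CPM in SRC3, 1.21, 0.909 and 1.35 in FRC1 and 0.350, 0.612 and 0.852 in PAR, and no comparison passed. Without PAR replicate 3 its adjusted p in FRC1 against PAR was 0.047. Itga1 and Itga11 were not tested. Exons of Itga10 and of Itga1 overlap those of other protein-coding genes on the same strand. Reads shared with those genes may be missing from these levels, since the settings of the counting are not given.

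Changes of the RGD-binding alpha chains were small. Itga5, the chain of the main fibronectin receptor, had 107, 116 and 112 CPM in SRC3, 129, 139 and 132 in FRC1 and 113, 116 and 123 in PAR. It rose in FRC1 against PAR (log2 fold change 0.18, SE 0.053, adjusted p = 0.015). It was lower in SRC3 than in FRC1 (log2 fold change -0.26, SE 0.053, adjusted p = 0.00073), while SRC3 and PAR overlapped (log2 fold change -0.08, adjusted p = 0.27). Itgav, which pairs with several beta chains to bind vitronectin and latent TGF-beta, had 186, 184 and 185 CPM in SRC3, 191, 189.7 and 175 in FRC1 and 208, 205 and 219 in PAR. All reserve libraries lay below those of PAR. Itgav fell in SRC3 (log2 fold change -0.19, SE 0.049, adjusted p = 0.0046) and in FRC1 (log2 fold change -0.19, SE 0.048, adjusted p = 0.0072) against PAR. The Itga5 call in FRC1 against PAR was lost without PAR replicate 1 (adjusted p = 0.093), PAR replicate 2 (0.063) or FRC1 replicate 2 (0.078), and the Itgav call without FRC1 replicate 3 (0.06).

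Itga2b, the platelet chain that pairs with beta3, had 0.952, 0.848 and 0.683 CPM in SRC3, 1.06, 1.61 and 1.21 in FRC1 and 0.699, 0.842 and 1.14 in PAR, with no call. Its partner Itgb3 had 0 to 5 reads per library. Itga4, a chain that binds VCAM-1 and fibronectin, had 1.17, 1.08 and 1.29 CPM in SRC3, 0.833, 0.489 and 0.570 in FRC1 and 0.909, 0.918 and 1.28 in PAR. It was higher in SRC3 than in FRC1 (log2 fold change 0.91, SE 0.34, adjusted p = 0.049). This call was lost in 12 of the other settings tried, among them DESeq2 and every omission of 1 library other than FRC1 replicate 1, with adjusted p up to 0.16, and it rests on about 1 CPM.

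Among the beta chains, the common chain Itgb1 changed little, and 3 minor chains changed by more than 2-fold in SRC3 against PAR. Itgb1 (ENSMUSG00000025809), the partner of most alpha chains above, had 983, 1008 and 928 CPM in SRC3, 953, 1158 and 1039 in FRC1 and 918, 907 and 924 in PAR. It rose in FRC1 against PAR (log2 fold change 0.20, SE 0.057, adjusted p = 0.014), a call lost without PAR replicate 1 (adjusted p = 0.057), PAR replicate 2 (0.061) or FRC1 replicate 2 (0.12). In SRC3 against PAR it did not pass (log2 fold change 0.09, adjusted p = 0.24), although the libraries did not overlap. Nor did it pass in SRC3 against FRC1 (log2 fold change -0.11, adjusted p = 0.15), except without FRC1 replicate 1 (adjusted p = 0.016).

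Itgb7 (ENSMUSG00000001281, minus strand of chromosome 15, 102215995 to 102231944, GRCm38) is a chain known mainly from lymphocytes. Its levels were 26.9, 30.2 and 27.7 CPM in SRC3, 5.75, 8.46 and 6.98 in FRC1 and 6.99, 7.65 and 6.46 in PAR. The 3 SRC3 libraries stood far above all others, while FRC1 and PAR overlapped. It rose 4.02-fold in SRC3 against PAR (log2 fold change 2.01, SE 0.12, adjusted p = 4.4e-11). Against FRC1 it was 3.98-fold higher (log2 fold change 1.99, SE 0.12, adjusted p = 5.3e-11). The log2 fold change in FRC1 against PAR was 0.01. Its known alpha partners were scarce: Itga4 stayed near 1 CPM, and Itgae had 0 to 3 reads per library.

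Itgb5 and Itgb6, both partners of the alphaV chain, moved in opposite directions in SRC3. Itgb5 (ENSMUSG00000022817, plus strand of chromosome 16, 33829665 to 33949338, GRCm38) is a vitronectin receptor chain. Its levels were 28.1, 27.1 and 30.1 CPM in SRC3, 21.1, 15.4 and 20.5 in FRC1 and 11.8, 10.8 and 12.7 in PAR, and no group overlapped another. It rose 2.41-fold in SRC3 against PAR (log2 fold change 1.27, SE 0.11, adjusted p = 1.6e-08) and 1.61-fold in FRC1 against PAR (log2 fold change 0.69, SE 0.12, adjusted p = 0.00018). It was higher in SRC3 than in FRC1 (log2 fold change 0.58, SE 0.10, adjusted p = 0.00018). Itgb6 (ENSMUSG00000026971, minus strand of chromosome 2, 60598292 to 60722643, GRCm38) is a chain known from epithelia where it activates latent TGF-beta. Its levels were 2.64, 3.00 and 2.89 CPM in SRC3, 8.25, 10.1 and 9.26 in FRC1 and 8.74, 8.19 and 12.3 in PAR. The SRC3 libraries lay below all others. Itgb6 in SRC3 was 3.43-fold lower than in PAR (log2 fold change -1.78, SE 0.18, adjusted p = 1.4e-07) and 3.23-fold lower than in FRC1 (log2 fold change -1.69, SE 0.18, adjusted p = 3.6e-07). The groups overlapped in FRC1 against PAR (log2 fold change -0.08, adjusted p = 0.71).

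Itgb4, the partner of alpha6 in hemidesmosomes of epithelia, had 78.8, 98.0 and 102 CPM in SRC3, 90.1, 85.1 and 92.3 in FRC1 and 91.6, 82.9 and 80.7 in PAR, with overlapping groups and no call. Without SRC3 replicate 1, the lowest SRC3 library, its adjusted p in SRC3 against PAR was 0.01. Itgb8, a further partner of alphaV, had 2.78, 3.39 and 6.45 CPM in SRC3, 3.33, 2.45 and 2.35 in FRC1 and 4.13, 2.07 and 2.27 in PAR and no call. With no filter on low counts its adjusted p was 0.038 in SRC3 against PAR and 0.018 in SRC3 against FRC1, and without PAR replicate 1 it was 0.041 in SRC3 against PAR. Itgb2 and Itgb3 were not tested.

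**Figure D3:**
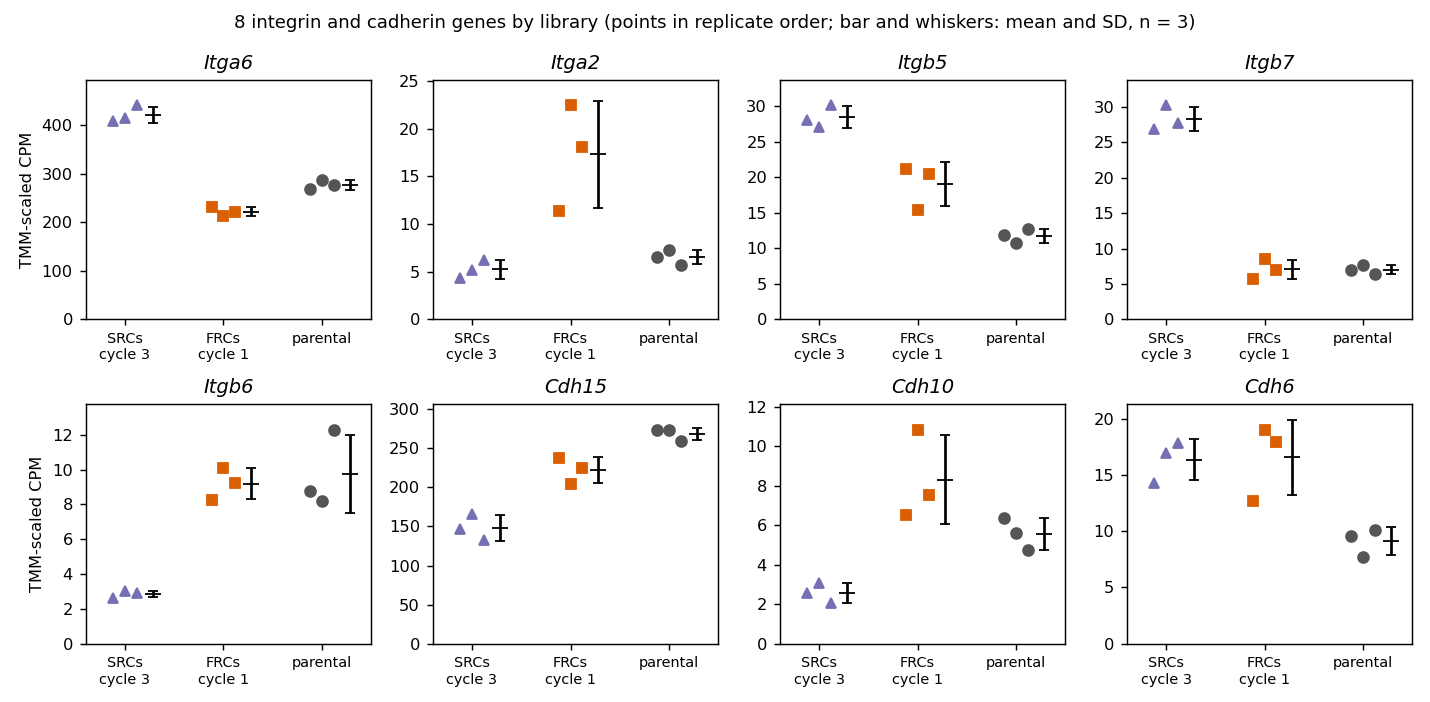
Level of 8 genes in each library (TMM-scaled CPM, linear axes from 0; points are libraries, bars with whiskers mean and SD, n = 3), with SRC3 left, FRC1 in the middle and PAR right in each panel. Itgb7 lies at 26.9 to 30.2 CPM in SRC3 and at 5.75 to 8.46 CPM in FRC1, Itga2 stands out in FRC1, and Itgb5 is ordered SRC3 above FRC1 above PAR.

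Both tested type I cadherins fell in each reserve population, beside 20.2% of all tested genes in SRC3 and 14.7% in FRC1 against PAR. Cdh15 (ENSMUSG00000031962, plus strand of chromosome 8, 122847966 to 122867397, GRCm38) is the M-cadherin of myoblasts and satellite cells. Its levels were 146, 166 and 133 CPM in SRC3, 238, 205 and 225 in FRC1 and 273, 274 and 259.8 in PAR. No group overlapped another, with SRC3 lowest and PAR highest. Cdh15 fell in SRC3 against PAR (log2 fold change -0.86, SE 0.070, adjusted p = 4.9e-08, a 1.81-fold difference) and in FRC1 against PAR (log2 fold change -0.27, SE 0.068, adjusted p = 0.007). It was lower in SRC3 than in FRC1 (log2 fold change -0.58, SE 0.070, adjusted p = 5.6e-06). Cdh2 (ENSMUSG00000024304), N-cadherin, had 189, 209 and 182 CPM in SRC3, 220.1, 211 and 226 in FRC1 and 261, 271 and 278 in PAR, in the same order of groups. It fell in SRC3 (log2 fold change -0.48, SE 0.053, adjusted p = 4.7e-07) and in FRC1 (log2 fold change -0.30, SE 0.053, adjusted p = 0.00029) against PAR. It was also lower in SRC3 than in FRC1 (log2 fold change -0.18, SE 0.053, adjusted p = 0.012). This last call was lost without FRC1 replicate 3 (adjusted p = 0.09), SRC3 replicate 1 (0.07) or SRC3 replicate 3 (0.055). The summed level of the 9 myoblast markers, which include Cdh15 and Itga7, was also lowest in SRC3, as given above. By mean, Myod1, Des, Chrna1, Vcam1, Pax7 and Cdh15 were lower in SRC3 than in PAR. Itga7 (313 CPM in SRC3, 289 CPM in PAR) and Ncam1 (223 and 193 CPM) were higher, and Myf6 was barely detected. Cdh1, Cdh3 and Cdh4, the other type I cadherins of the set, were not tested.

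Of the 13 type II cadherins 3 were tested, and all 3 passed in both comparisons with PAR, though not all in the same direction. Of all tested genes, 37.9% passed in SRC3 and 28.3% in FRC1 against PAR. Cdh6 (ENSMUSG00000039385, minus strand of chromosome 15, 13028701 to 13173675, GRCm38) is the K-cadherin of kidney and neural crest. Its levels were 14.3, 17.0 and 17.8 CPM in SRC3, 12.7, 19.0 and 17.9 in FRC1 and 9.58, 7.73 and 10.1 in PAR. It rose in SRC3 (log2 fold change 0.84, SE 0.15, adjusted p = 0.00026) and in FRC1 (log2 fold change 0.86, SE 0.15, adjusted p = 0.00039) against PAR. The reserve populations overlapped (log2 fold change -0.02, adjusted p = 0.92). Cdh24, another type II cadherin, had 8.94, 9.32 and 11.2 CPM in SRC3, 9.99, 11.4 and 10.5 in FRC1 and 6.09, 7.65 and 6.89 in PAR. It too rose in SRC3 (log2 fold change 0.52, SE 0.13, adjusted p = 0.0044) and in FRC1 (log2 fold change 0.63, SE 0.13, adjusted p = 0.0012) against PAR. Here too the reserve populations overlapped (log2 fold change -0.12, adjusted p = 0.52).

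Cdh10 (ENSMUSG00000022321, plus strand of chromosome 15, 18818947 to 19014236, GRCm38) is a type II cadherin known mainly from the nervous system. Its levels were 2.56, 3.08 and 2.05 CPM in SRC3, 6.51, 10.8 and 7.55 in FRC1 and 6.36, 5.58 and 4.76 in PAR. The SRC3 libraries lay below, and the FRC1 libraries above, those of PAR. It fell in SRC3 against PAR (log2 fold change -1.12, SE 0.22, adjusted p = 0.00057, a 2.17-fold difference). It rose in FRC1 against PAR (log2 fold change 0.58, SE 0.18, adjusted p = 0.024) and was 3.24-fold lower in SRC3 than in FRC1 (log2 fold change -1.70, SE 0.21, adjusted p = 3.4e-06). The FRC1 call was lost without PAR replicate 2 (adjusted p = 0.066), PAR replicate 3 (0.11) or FRC1 replicate 2 (0.2), the highest library. Cdh6 and Cdh10 are neighbours on chromosome 15 among the tested genes, 5645272 bases apart. Their changes had opposite signs in SRC3 against PAR and the same sign in FRC1 against PAR.

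The 3 tested cadherins that are not classical were lower in FRC1 than in PAR, beside 14.7% of all tested genes. Cdh13, which is held in the membrane by a lipid anchor and binds adiponectin, had 129, 127 and 115 CPM in SRC3, 116, 107 and 111 in FRC1 and 129, 131 and 134 in PAR. It fell in FRC1 against PAR (log2 fold change -0.24, SE 0.054, adjusted p = 0.0026) and did not pass in SRC3 against PAR (log2 fold change -0.09, adjusted p = 0.22). Between the reserve populations it was higher in SRC3 (log2 fold change 0.15, SE 0.055, adjusted p = 0.036) with overlapping libraries. This call was lost in 5 of the other settings tried, with adjusted p up to 0.12: in a fit of only these groups and without FRC1 replicate 2 or 3 or SRC3 replicate 1 or 2.

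Cdh17, the cadherin of liver and intestine, had 2.05, 1.93 and 1.59 CPM in SRC3, 0.909, 0.909 and 0.926 in FRC1 and 2.098, 1.99 and 1.07 in PAR. Cdh23, a component of the tip links of hair cells, had 2.64, 2.23 and 2.43 CPM in SRC3, 3.79, 2.66 and 3.70 in FRC1 and 4.55, 5.20 and 4.76 in PAR. Cdh17 fell in FRC1 against PAR (log2 fold change -0.90, SE 0.31, adjusted p = 0.036) and was higher in SRC3 than in FRC1 (log2 fold change 1.02, SE 0.31, adjusted p = 0.015). In SRC3 against PAR the Cdh17 libraries overlapped and it did not pass (log2 fold change 0.12, adjusted p = 0.77). Cdh23 fell in SRC3 (log2 fold change -0.98, SE 0.19, adjusted p = 0.00037) and in FRC1 (log2 fold change -0.52, SE 0.18, adjusted p = 0.036) against PAR. In SRC3 against FRC1 it did not pass (log2 fold change -0.47, adjusted p = 0.082), except without FRC1 replicate 2 (adjusted p = 0.034). In FRC1 against PAR the Cdh17 call was lost in 7 and the Cdh23 call in 6 of the other settings tried, with adjusted p up to 0.17 for each. Both were lost with DESeq2; the Cdh17 call was also lost with limma voom and without any 1 of the FRC1 libraries or PAR replicate 1 or 2, and the Cdh23 call without any 1 of the PAR libraries or FRC1 replicate 2 or 3. The Cdh17 call in SRC3 against FRC1 was lost without SRC3 replicate 1 (adjusted p = 0.056). The Cdh17 counts are near the limit of the filter.

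Levels were set against each other between genes per kilobase of annotated exon, as mean CPM per kilobase. With this length, Itga3 was highest among alpha chains in all 3 populations, at 61.0 ± 1.95 in SRC3, 62.2 ± 3.98 in FRC1 and 61.6 ± 1.57 CPM per kilobase in PAR (SD, n = 3 each). Itga6, on the same length, was the second alpha chain in SRC3 at 46.7 ± 1.86, the fourth in FRC1 at 24.6 ± 1.03 and the third in PAR at 30.7 ± 1.06 CPM per kilobase (SD, n = 3 each). Itga7 came next to Itga3 in FRC1 and PAR and after Itga6 in SRC3, at 38.7 ± 3.27 in SRC3, 35.8 ± 1.85 in FRC1 and 35.8 ± 0.779 CPM per kilobase in PAR. Itga5 averaged 22.6, 27.0 and 23.8 and Itgav 17.2, 17.2 and 19.6 CPM per kilobase in SRC3, FRC1 and PAR. Within each population, libraries of these 5 chains did not overlap with those of the next in order. The order depends on the gene length used. With the longest transcript in place of all exons, Itga6 came first in SRC3 at 97.8 ± 3.89, ahead of Itga7 at 77.95 ± 6.59 and Itga3 at 71.6 ± 2.29 CPM per kilobase, and libraries of the last 2 overlapped. On that length Itga6 was the third chain in both FRC1 and PAR, at 51.5 ± 2.16 and 64.2 ± 2.22 CPM per kilobase (SD, n = 3 each). Itga3 and Itga7 came before it with overlapping libraries, averaging 73.1 and 72.0 in FRC1 and 72.4 and 72.0 CPM per kilobase in PAR. Itgav came before Itga5 in SRC3 and PAR on that length, with overlapping libraries in SRC3.

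Itga6 made up 23.8 to 26.5% of the summed alpha chain level per kilobase of all exons in SRC3, 14.2 to 14.8% in FRC1 and 17.3 to 18.3% in PAR. With the longest transcript it made up 31.2 to 34.5% in SRC3, 19.8 to 20.5% in FRC1 and 23.6 to 24.8% in PAR, in the same order of groups. The ranges did not overlap on either length, and each difference of the first set reached the smallest p that an exact permutation test of 3 against 3 libraries allows, 0.1, which cannot pass 0.05. The summed alpha level itself was 187 ± 4.70 in SRC3, 170 ± 4.74 in FRC1 and 173 ± 4.17 CPM per kilobase in PAR (SD, n = 3 each).

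Itgb1 held most of the beta chain level, 87.0 to 89.1% in SRC3, 91.3 to 93.1% in FRC1 and 91.6 to 92.1% in PAR. Itgb4 followed at 13.2 ± 1.76 in SRC3, 12.7 ± 0.525 in FRC1 and 12.1 ± 0.818 CPM per kilobase in PAR. In SRC3, Itgb7 at 10.2 ± 0.623 came before Itgb5 at 8.01 ± 0.433 CPM per kilobase. In FRC1 Itgb7 at 2.55 ± 0.489 came after Itgb5 at 5.36 ± 0.876, as in PAR did Itgb7 at 2.54 ± 0.215 after Itgb5 at 3.31 ± 0.271 CPM per kilobase (SD, n = 3 each). Itgb7 thus took 3.59 to 3.89% of the beta chain level in SRC3, 0.812 to 1.00% in FRC1 and 0.949 to 1.15% in PAR.

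Cdh15 and Cdh2 were the first and second cadherins by level per kilobase in all 3 populations, and Cdh13 the third. The longest transcript gave the same order by mean, with overlapping libraries of Cdh15 and Cdh2 in SRC3. Without length scaling, Cdh2 was above Cdh15 in SRC3, at 193 against 148 CPM by mean. The means of Cdh2 and Cdh15 were close in FRC1, at 219.2 and 222.5 CPM, and in PAR, at 269.8 and 268.8 CPM. Cdh15 averaged 45.6 ± 5.03 in SRC3, 68.5 ± 5.11 in FRC1 and 82.7 ± 2.40 CPM per kilobase in PAR. The summed level of type I and type II cadherins was 74.6 ± 6.52 in SRC3, 102 ± 5.03 in FRC1 and 120 ± 1.68 CPM per kilobase in PAR (SD, n = 3 each). The share of Cdh15 in that sum was 59.3 to 62.3% in SRC3, 65.7 to 69.3% in FRC1 and 67.6 to 70.0% in PAR, and that of Cdh2 31.6 to 32.7%, 25.8 to 27.3% and 27.0 to 29.1%. SRC3 did not overlap with the other groups in either share, and the exact permutation p was 0.1 in SRC3 against each. The Cdh15 share depends on the gene length used, and its order between groups by mean did not change with it. With the longest transcript in place of all exons, Cdh15 held 50% in SRC3, 56.4% in FRC1 and 57.7% in PAR.

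**Figure D4:**
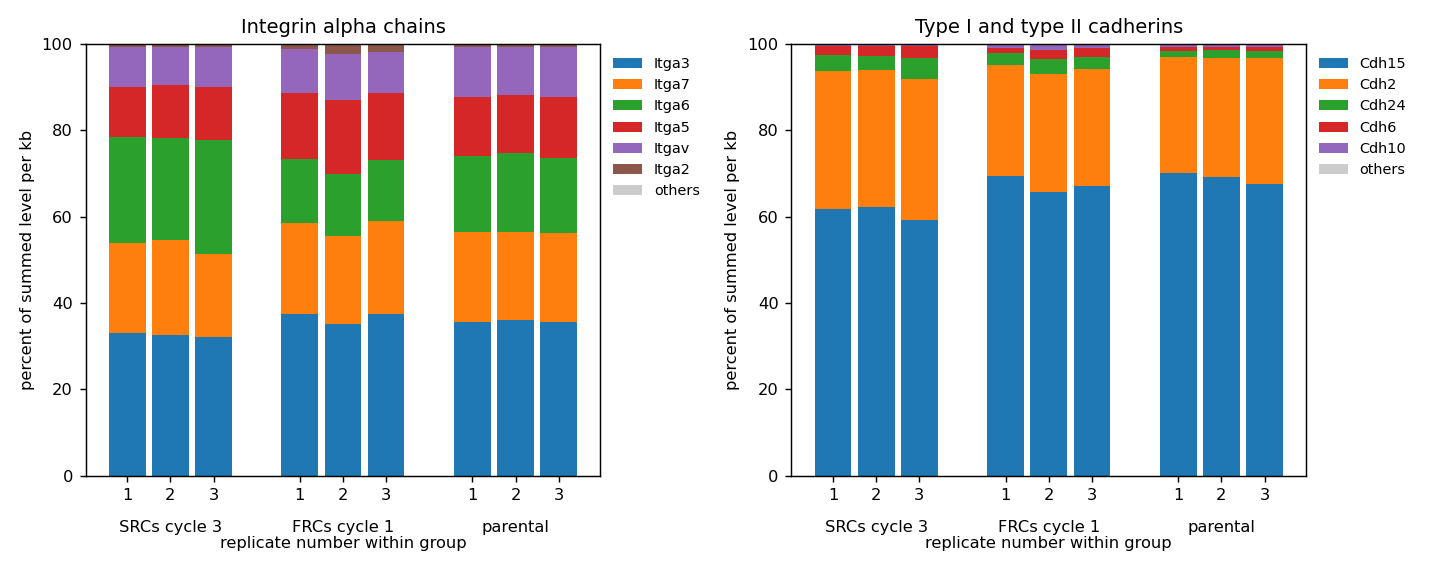
Share of each gene in the summed level per kilobase of all exons, of integrin alpha chains (left) and of type I and type II cadherins (right) in every library, in percent. The Itga6 band is widest in SRC3 at 23.8 to 26.5%, and the Cdh15 band is narrowest there at 59.3 to 62.3%.

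Focal adhesions link integrins to the cytoskeleton. The list of integrin linkage and focal adhesion genes is wider than that link and also holds membrane proteins such as Cd9. Of its 36 tested genes, 4 were higher, Cd9 among them, and 14 lower in SRC3 against PAR (11.1 and 38.9%, beside 17.8 and 20.2% of all tested genes). In the other comparisons, 7 were higher and 4 lower in FRC1 against PAR (19.4 and 11.1%, beside 13.6 and 14.7% of all tested genes), and 6 were higher and 17 lower in SRC3 against FRC1 (16.7 and 47.2%, beside 15.5 and 18% of all tested genes). The list's median log2 fold changes were -0.08, 0.01 and -0.18 in SRC3 against PAR, FRC1 against PAR and SRC3 against FRC1, beside 0.01, 0.00 and 0.00 over all tested genes. Zyx, zyxin of focal adhesions and stress fibres, was lower in SRC3, with 576 ± 58.1 CPM in SRC3 and 1304 ± 61.2 CPM in PAR (SD, n = 3 each, log2 fold change -1.18, adjusted p = 5.9e-10). The tensins, which bind beta chain tails and actin, differed in direction. Tns1 had 129 ± 10.7 CPM in SRC3 and 64.0 ± 4.06 CPM in PAR (SD, n = 3 each, log2 fold change 1.02, adjusted p = 4.3e-09). Conversely, Tns2 had 46.5 ± 1.71 CPM in SRC3 and 86.3 ± 1.32 CPM in PAR (SD, n = 3 each, log2 fold change -0.89, adjusted p = 4.1e-09). The list's count in FRC1 against PAR moved between 5, without FRC1 replicate 3, and 19, in a fit of only these groups. All genes called numbered 2327 and 4043 in these fits, beside 3550 in the main fit. The list's count was 7 without PAR replicate 1 or FRC1 replicate 2 and 6 without PAR replicate 2 or 3. All genes called then numbered 2496, 2645, 2768 and 2584 in the same order. In FRC1 against PAR, Tns3 had 699 ± 29.0 CPM in FRC1 and 529 ± 22.1 CPM in PAR (SD, n = 3 each, log2 fold change 0.40, adjusted p = 3.1e-05).

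Of 17 tested catenins and other adherens junction genes, 2 were higher and 8 lower in SRC3 against PAR (11.8 and 47.1%, beside 17.8 and 20.2% of all tested genes). In the other comparisons, 2 were higher and 7 lower in FRC1 against PAR (11.8 and 41.2%, beside 13.6 and 14.7% of all tested genes), and 3 were higher and 4 lower in SRC3 against FRC1 (17.6 and 23.5%, beside 15.5 and 18% of all tested genes). The list's median log2 fold changes were -0.11, -0.18 and -0.03 in SRC3 against PAR, FRC1 against PAR and SRC3 against FRC1, beside 0.01, 0.00 and 0.00 over all tested genes. Jup, plakoglobin, was among the higher ones in both, with 40.3 ± 3.92 CPM in SRC3 and 27.6 ± 1.74 CPM in PAR (SD, n = 3 each, log2 fold change 0.55, adjusted p = 1.6e-05). In FRC1 against PAR it had 32.5 ± 1.05 CPM in FRC1 and 27.6 ± 1.74 CPM in PAR (SD, n = 3 each, log2 fold change 0.23, adjusted p = 0.037). Mllt4, afadin, which links nectins to actin, was lower, with 116 ± 3.22 CPM in SRC3 and 151 ± 8.07 CPM in PAR (SD, n = 3 each, log2 fold change -0.38, adjusted p = 8.2e-05). It was lower in FRC1 too, with 109 ± 11.2 CPM in FRC1 and 151 ± 8.07 CPM in PAR (SD, n = 3 each, log2 fold change -0.47, adjusted p = 2.1e-05). Without PAR replicate 3 or FRC1 replicate 3, 4 genes of this list passed in FRC1 against PAR, and without FRC1 replicate 3, 4 passed in SRC3 against FRC1. All genes called in these fits numbered 2584, 2327 and 3371 in turn, beside 3550 in FRC1 against PAR and 4199 in SRC3 against FRC1 with all libraries. Pvrl2, a nectin, had 11.7 ± 0.784 CPM in SRC3 and 23.8 ± 1.28 CPM in PAR (SD, n = 3 each, log2 fold change -1.02, adjusted p = 2.5e-07).

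Among 20 tested ligands of integrins, 5 were higher and 9 lower in SRC3 against PAR (25 and 45%, beside 17.8 and 20.2% of all tested genes). In the other comparisons, 6 were higher and 6 lower in FRC1 against PAR (30 and 30%, beside 13.6 and 14.7% of all tested genes), and 3 were higher and 10 lower in SRC3 against FRC1 (15 and 50%, beside 15.5 and 18% of all tested genes). The list's median log2 fold changes were -0.36, 0.06 and -0.24 in SRC3 against PAR, FRC1 against PAR and SRC3 against FRC1, beside 0.01, 0.00 and 0.00 over all tested genes. The list shares Col3a1 with the fibroblast markers and Vcam1 with the myoblast markers. The laminin chain Lama2, part of the main muscle laminin, was lower in both reserve populations, with 15.5 ± 2.00 CPM in SRC3 and 53.2 ± 2.60 CPM in PAR (SD, n = 3 each, log2 fold change -1.78, adjusted p = 9.4e-10). Its levels in the other comparison were 29.2 ± 4.62 CPM in FRC1 and 53.2 ± 2.60 CPM in PAR (SD, n = 3 each, log2 fold change -0.87, adjusted p = 8.3e-06). Tnc, tenascin-C, had 1499 ± 266 CPM in FRC1 and 686 ± 23.9 CPM in PAR (SD, n = 3 each, log2 fold change 1.13, adjusted p = 0.008). It was lower in SRC3 than in FRC1 (log2 fold change -2.02, adjusted p = 0.00045). Fbn1, the microfibril protein fibrillin-1, which carries an RGD motif, had 10.1 ± 0.923 CPM in SRC3 and 49.1 ± 3.37 CPM in PAR (SD, n = 3 each, log2 fold change -2.28, adjusted p = 8.1e-14).

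Of 13 tested genes of the wider cadherin superfamily, 3 were higher and 7 lower in SRC3 against PAR (23.1 and 53.8%, beside 17.8 and 20.2% of all tested genes). In the other comparisons, 0 were higher and 5 lower in FRC1 against PAR (0 and 38.5%, beside 13.6 and 14.7% of all tested genes), and 4 were higher and 6 lower in SRC3 against FRC1 (30.8 and 46.2%, beside 15.5 and 18% of all tested genes). The list's median log2 fold changes were -0.55, -0.28 and -0.43 in SRC3 against PAR, FRC1 against PAR and SRC3 against FRC1, beside 0.01, 0.00 and 0.00 over all tested genes. The protocadherin Pcdh9 had 3.29 ± 0.464 CPM in SRC3 and 11.2 ± 0.756 CPM in PAR (SD, n = 3 each, log2 fold change -1.76, adjusted p = 3.3e-08). It also fell in FRC1, with 5.67 ± 1.06 CPM in FRC1 and 11.2 ± 0.756 CPM in PAR (SD, n = 3 each, log2 fold change -0.98, adjusted p = 5e-05). The giant cadherins of the Fat group differed. Fat2 had 14.98 ± 3.46 CPM in SRC3 and 6.37 ± 1.39 CPM in PAR (SD, n = 3 each, log2 fold change 1.23, adjusted p = 2.9e-05). Fat4 had 4.98 ± 2.102 CPM in SRC3 and 13.9 ± 2.40 CPM in PAR (SD, n = 3 each, log2 fold change -1.49, adjusted p = 0.0012).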

How the data were processed

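Each of the 9 libraries has a deposited table of raw gene counts in whole numbers, to which no normalization had been applied. GRCm38, HISAT2 2.1.0, HTSeq 0.9.1 and DESeq2 appear in the submitters' processing notes, with settings not given in the sources used here. The 5 closing lines that name no gene were left out. Reads assigned to no feature made up 5.923 to 7.917%, and ambiguous reads 1.175 to 1.214%. Both are percentages of the gene, no-feature and ambiguous reads together. No 2 replicates agreed within sampling noise.

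Counts were filtered with filterByExpr (minimum count 10, minimum total 15) and fitted in edgeR 4.0.16 (R 4.3.3) with TMM factors and robust quasi-likelihood dispersions, with 6 residual degrees of freedom. The standard error is the log2 fold change divided by the root of F. The common biological coefficient of variation was 0.0535. Floors cover counting error only. Levels per kilobase use the union of exons in GENCODE M21, which matched all 50 rows. Promoters are those of RefSeq for GRCm38.p6, with an entry for 31 of the distinct symbols.

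Every member with a mean of at least 1 CPM in a group was named. Genes of other lists were named only among the 4 largest called changes of a list and comparison that reached 5 CPM in the higher group. The members and lists were chosen with earlier results of these data known. Alternatives were other normalizations and filters, DESeq2 1.42.0, voom of limma 3.58.1, a replicate block, fits of only the groups compared, each library left out, and other gene lengths.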

Additional observations from a re-analysis of the deposited data

Results flagged for a closer look

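Itga6 and Cdh10 had effects of opposite sign in the reserve populations, each against PAR, and the difference between the effects was itself tested, as SRC3 against FRC1. For Itga6 the log2 fold change was 0.61 in SRC3 against PAR and -0.32 in FRC1 against PAR, and the effects differed by 0.93 (adjusted p = 8e-12 by edgeR's quasi-likelihood test). All 3 SRC3 libraries lay above, and all 3 FRC1 libraries below, the PAR libraries. For Cdh10 the log2 fold change was -1.12 in SRC3 against PAR and 0.58 in FRC1 against PAR, and the effects differed by -1.70 (adjusted p = 3.4e-06). Both effects share the PAR libraries. The genes were flagged because their effects differed between the reserve populations. The test of SRC3 against FRC1 uses the same libraries, so its p-values are not independent support for that difference. The FRC1 call of Cdh10 was lost in 3 of the other settings tried, while the difference between the reserve populations passed in all settings, with adjusted p between 6.4e-19 and 0.00011.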

How the results depend on the processing

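Of 1155 values of the named genes under the alternatives, 1102 kept their side of the threshold, 44 lost it, 9 gained it and 0 changed sign while called. Calls held in every setting for 11 of 11 genes in SRC3 against PAR, 8 of 14 in FRC1 against PAR and 8 of 12 in SRC3 against FRC1; genes under the stricter filter have no value there. Leaving out 1 library at a time, the integrins and cadherins called numbered 11 to 12 in SRC3 against PAR (5 to 6 higher, 6 lower), 9 to 14 in FRC1 against PAR (4 to 7 higher, 4 to 7 lower) and 8 to 13 in SRC3 against FRC1 (3 to 6 higher, 5 to 7 lower), and all genes called 3845 to 4924, 2327 to 3987 and 3371 to 4281. The lowest of these for all genes in FRC1 against PAR came without FRC1 replicate 3. The share of Cdh15 in the type I and type II cadherin level was 50% in SRC3, 56.4% in FRC1 and 57.7% in PAR with the longest transcript as gene length, and 39.9, 46.5 and 47.9% without length scaling; leaving out 1 library gave 60.5 to 62%, 66.3 to 68.1% and 68.4 to 69.6%. The share of Itga6 in the alpha chain level, for which other lengths were chosen after seeing the data, was 32.6% in SRC3, 20.1% in FRC1 and 24.1% in PAR with the longest transcript, and 30.4, 18.4 and 22% without length scaling; leaving out 1 library gave 24.2 to 25.5%, 14.3 to 14.6% and 17.5 to 18%. The order of groups was the same on each length for both shares.

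Deviations of same-numbered libraries of different groups correlated between -0.07 and 0.118, and those of differently numbered ones between -0.089 and 0.122. The percentage of reads assigned to no feature rose with the replicate number in each group. Whether the numbers mark a pairing or a shared batch cannot be told from these values. With the replicate block the genes called numbered 4798 in SRC3 against PAR, 3560 in FRC1 against PAR and 4221 in SRC3 against FRC1, and the members 11, 14 and 11, the 1 lost being Itga4 (adjusted p = 0.056). Depth limits the 27 rows that were not tested and the genes near 1 CPM.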
